A study of Homo sapiens with 4 samples.

Results

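Expression of 10 genes for chaperones and folding enzymes of the endoplasmic reticulum (ER) was examined in THP1 cells after MLL-AF9 knockdown. The genes were CALR, CANX, HSPA5, HSP90B1, PDIA3, PDIA4, PDIA6, DNAJC1, DNAJB11 and HYOU1. Every probe that carries 1 of these names on the array was taken, provided that it was no control spot and had a quality weight above 0 on all arrays. This gave 14 probes among the 26219 probes analysed, or 10 genes among 16300 genes with a symbol. CANX, HSP90B1, PDIA3 and DNAJC1 had 2 probes each and the other 6 genes had 1 probe each, and no member probe was lost to the quality weight. THP1 is a cell line of acute myeloid leukemia, type M5, that carries the MLL-AF9 fusion gene. MLL-AF9 was knocked down with siRNA-A or with siRNA-B, each directed at the fusion breakpoint, and the controls received the non-targeting control siRNA-1 or control siRNA-2. All cells were transfected on days 0, 3 and 6, moved from 10% to 0.5% serum on day 6 and harvested on day 8. Each treatment was 1 single-colour array of RNA pooled from 5 experiments, which left 2 arrays per group, all of 1 cell line. Both knockdown arrays took the first positions of the slide, so effects of the treatment and of the slide position cannot be told apart.

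The ER chaperones bind proteins that enter the secretory pathway and hold them until they are folded. HSPA5 (BiP), the HSP70 of the ER, works with J-domain cofactors such as DNAJC1 and DNAJB11 and with the exchange factor HYOU1, while HSP90B1 (GRP94) is the HSP90 of the ER. Calreticulin (CALR) and calnexin (CANX) are calcium-binding lectins that hold glycoproteins, and the disulfide isomerases PDIA3, PDIA4 and PDIA6 form and rearrange disulfide bonds. In leukemic cells calreticulin is also known as a protein that can appear at the cell surface. Several of these genes share a promoter element, the ER stress response element (ERSE), which is bound by NF-Y and ATF6 in the unfolded protein response.

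The shared element was sought in promoter sequences from RefSeq (assembly GRCh38.p14), each from 250 bases before to 50 bases after a gene start. Promoter entries were matched by symbol for 8 of the 10 genes. PDIA3 and DNAJC1 had no entry. The ERSE was searched as CCAAT and CCACG with 9 bases of any kind between them, on both strands, and was held by 27 of 35116 promoters (0.0769%), and by 5 of the 8 genes: CALR, CANX, HSPA5, HSP90B1, with 2 copies, and PDIA6. A shorter form of the element, ERSE-II (ATTGG and CCACG with 1 base between them, both strands), was held by 19 promoters (0.0541%), among them that of HYOU1 with 2 copies. The XBP1 element TGACGTGG, searched on both strands, was held by 256 promoters (0.729%), and its match in HYOU1 overlapped the upstream ERSE-II copy. In these windows of PDIA4 and DNAJB11 none of the 3 strings was found. The matches are shown in capitals below, with 20 flanking bases on either side, because 5 of these genes share the ERSE and HYOU1 holds its shorter form. In CALR, in HYOU1 and in the downstream copy of HSP90B1 the element stands on the opposite strand, so that CGTGG comes first. In CALR it lay 225 to 207 bases and in HSPA5 66 to 48 bases before the gene start.
CALR, chr19:12938364-12938422, plus strand: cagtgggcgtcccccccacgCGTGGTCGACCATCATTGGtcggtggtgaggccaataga
CANX, chr5:179698758-179698816, plus strand: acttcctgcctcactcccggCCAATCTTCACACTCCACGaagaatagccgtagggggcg
HSPA5, chr9:125241371-125241429, minus strand: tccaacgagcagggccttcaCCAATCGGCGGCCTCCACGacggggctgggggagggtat
HSP90B1, chr12:103930196-103930359, plus strand: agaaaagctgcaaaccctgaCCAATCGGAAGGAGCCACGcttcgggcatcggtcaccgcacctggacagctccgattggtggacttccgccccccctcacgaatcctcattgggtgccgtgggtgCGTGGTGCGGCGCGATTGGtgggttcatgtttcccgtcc
PDIA6, chr2:10812833-10812891, minus strand: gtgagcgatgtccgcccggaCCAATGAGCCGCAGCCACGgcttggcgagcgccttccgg
HYOU1, chr11:119057254-119057413, minus strand: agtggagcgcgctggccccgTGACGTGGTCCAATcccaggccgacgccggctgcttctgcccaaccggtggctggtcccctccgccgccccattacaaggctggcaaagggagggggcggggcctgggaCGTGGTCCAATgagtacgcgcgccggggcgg

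CALR fell after knockdown and was the 1 of the 10 genes whose lead probe, the brightest probe of a gene, was called. This call was lost when the pixels of a spot were summarised by their mean, with background-subtracted signals, and with normexp and quantile normalization. It was also lost when any 1 array was left out, where fewer probes were called over all probes as well. A call required an unadjusted p under 0.005 from limma, the first condition of the study's methods. A further condition there, a test over identical replicate probes, was not applied, and each member probe has 1 spot. The lead probes of all 10 genes had a lower mean with the knockdown than with the control siRNAs. This held for 9 of them after loess or quantile normalization and for 8 without siRNA-A. Their median log2 fold change was -0.18, against -0.022 over all 16300 genes and -0.092 over the brightest 5% of probes. The median was -0.13 after loess and -0.11 without siRNA-A. Of these lead probes 1 was called lower and 0 higher, where 0.65% of all lead probes were called lower. All 14 probes were well above background on every array and 0 of their spots were saturated. Of these probes 2 were called lower, CALR and 1 of both DNAJC1 probes, and 0 higher, where 0.732% of all probes were called lower and 0.584% higher. With limma 4 probes reached an unadjusted p under 0.05, all of them lower (4.90% of all probes), and 0 reached an adjusted p under 0.05 (0.118% of all probes). On 9 of the 14 probes the knockdown arrays both lay under the 2 control arrays, as did 21.4% of all probes, and of the lead probes 6 did so (21.3% of all lead probes). On 0 member probes did they both lie above the controls (15.2% of all probes), and on 5 the arrays overlapped. CALR and DNAJC1 were in the study's own set of changed genes, which came from these arrays, so their direction is not independent evidence. The study also measured CALR by RT-qPCR, among other changed transcripts, on the array RNA and on pools of independent experiments. For these transcripts together its text gives a rank correlation with the arrays, but no value for CALR alone. Since each array holds RNA of many cells, a lower level per cell and fewer cells with that transcript cannot be told apart. The p-values rest on the spread within groups, which limma draws toward a common value from all probes. The 2 arrays of a group are pools with different siRNAs, and their spread may be technical. The smallest exact permutation p of 2 arrays against 2 is 0.333.

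**Figure D1:**
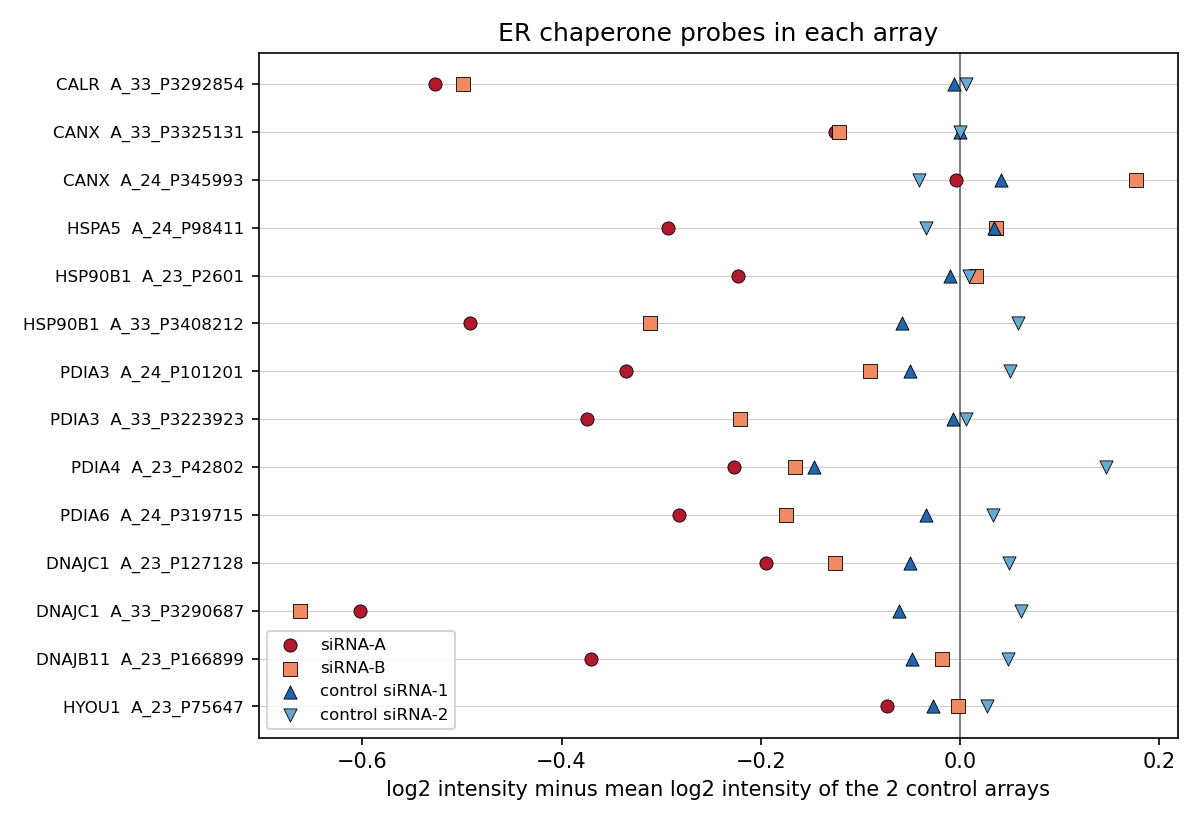
Log2 intensity of each of the 14 ER chaperone probes on each array, as the difference from the mean of the 2 control arrays (x axis), with 1 line per probe and 1 symbol per array. CALR and DNAJC1 A_33_P3290687 show both knockdown arrays at -0.50 or lower, and on most other lines siRNA-A (circles) lies to the left of siRNA-B (squares).

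CALR encodes calreticulin, a soluble lectin and the main calcium buffer of the ER. Its probe A_33_P3292854 lies in the transcript NM_004343 at chr19:13055230-13055289 (hg19, plus strand). The log2 intensity was 16.78 with siRNA-A, 16.80 with siRNA-B, 17.30 with control siRNA-1 and 17.31 with control siRNA-2. On this median pixel scale both knockdown arrays lay close together and below both controls. With mean pixel signals the values were 17.04 and 16.92 against 17.32 and 17.34, so the order of the siRNAs turned. CALR fell by 0.51 on the log2 scale (standard error, SE, 0.11; limma adjusted p = 0.226), which is a change of -29.9% (95% confidence interval -40.9% to -16.9%). The probe was brighter than 99.5% of all probes, and 0 of its pixels were saturated on any array.

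The CALR value depended on how the pixels of its spot were summarised. The deposited intensity is the median of the pixels, and the scanner tables also hold their mean. The mean lay above the median by 19.8% with siRNA-A and by 8.37% with siRNA-B, but by 1.62% and 2.47% with control siRNA-1 and control siRNA-2. The 1806 spots of the brightest 5% of probes had a median excess of 2.22% to 2.50%, and the 99th percentile was between 16.8% and 18.9%. With siRNA-A the gap between mean and median, 22178 intensity units, was larger than the standard deviation of the pixels, 15408 units, which cannot occur for a mean and a median of 1 set of values. Such gaps were found in 0 of the 11175 to 11508 spots per array with a mean signal from 1000 to 50000, and in 13.0% to 15.8% of the 594 to 668 brighter spots. Among 56 values of member probes on single arrays, that of CALR with siRNA-A was the 1 value with such a gap. In the brighter class identical spots differed by a median standard deviation of 0.17 to 0.26 (log2) with the median of the pixels and of 0.12 to 0.17 with their mean, over 17 to 21 probes with at least 5 spots each. With mean pixel signals CALR changed by -0.35 (SE 0.11, limma adjusted p = 0.426) and was not called (unadjusted p = 0.0107, limma). The scanner software set no outlier mark on the CALR spot on any array, and 168 spots around it on the slide had a median log2 fold change of -0.066.

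**Figure D2:**
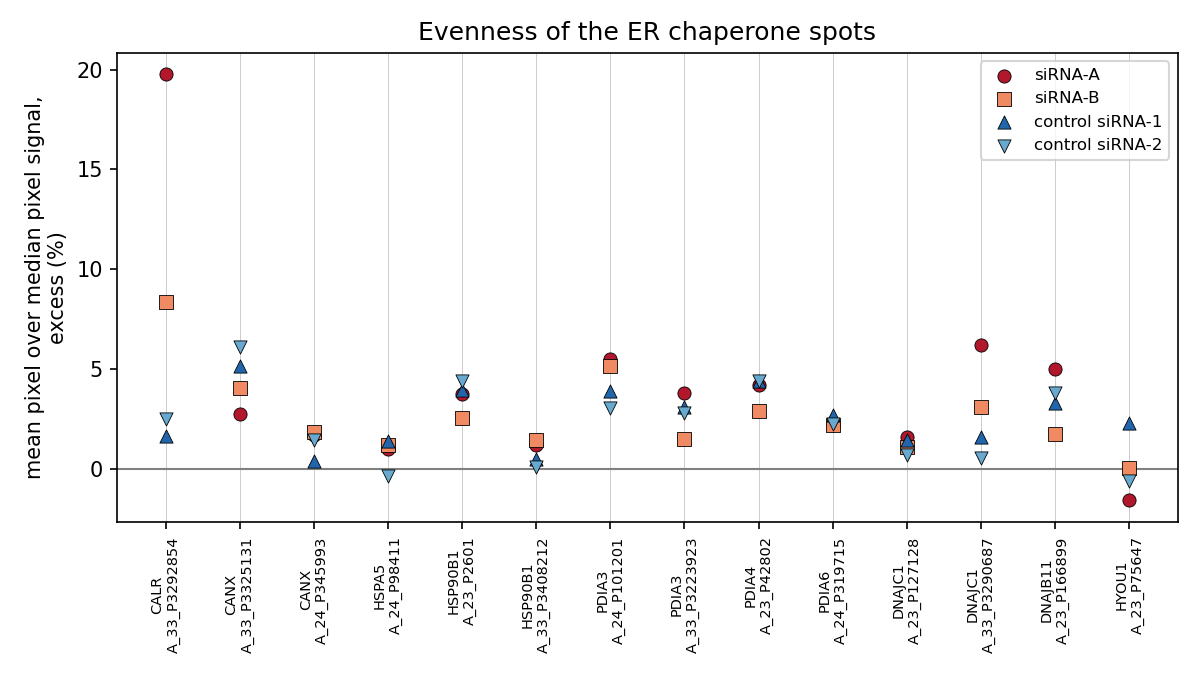
Excess of the mean over the median pixel signal of each ER chaperone spot in percent (y axis), for each of the 14 probes (x axis) and each array (symbols). CALR stands out with 19.8% for siRNA-A and 8.37% for siRNA-B, whereas its control spots lie at 1.62% and 2.47%.

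The signal of CALR also had to be seen beside other bright probes, since the deposited intensities were not normalized between arrays. The brightest 5% of probes, 1311 probes with a mean log2 intensity of at least 13.85, had a median log2 fold change of -0.092, and 77.0% of them were lower after knockdown. In that class the knockdown arrays both lay under the 2 controls in 40.9% of probes. It held 2 member probes, CALR and HSP90B1 A_23_P2601. Cyclic loess normalization brought the median of the class to -0.0080, and quantile normalization brought it to -0.0022. CALR then changed by -0.40 (SE 0.085, limma adjusted p = 0.403) after loess and by -0.42 after quantile normalization, and was called with both. With mean pixel signals and loess together CALR changed by -0.24 (unadjusted p = 0.0594, limma) and was not called. With the background-subtracted signal of the scanner software CALR changed by -0.30 when scaled and by -0.34 when unscaled, and was called with neither. With normexp background correction and quantile normalization it changed by -0.22, the smallest change of all alternatives, and was not called. The change was -0.50 without siRNA-A, -0.53 without siRNA-B, -0.52 without control siRNA-1 and -0.51 without control siRNA-2, and was called in none of these 4 fits.

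**Figure D3:**
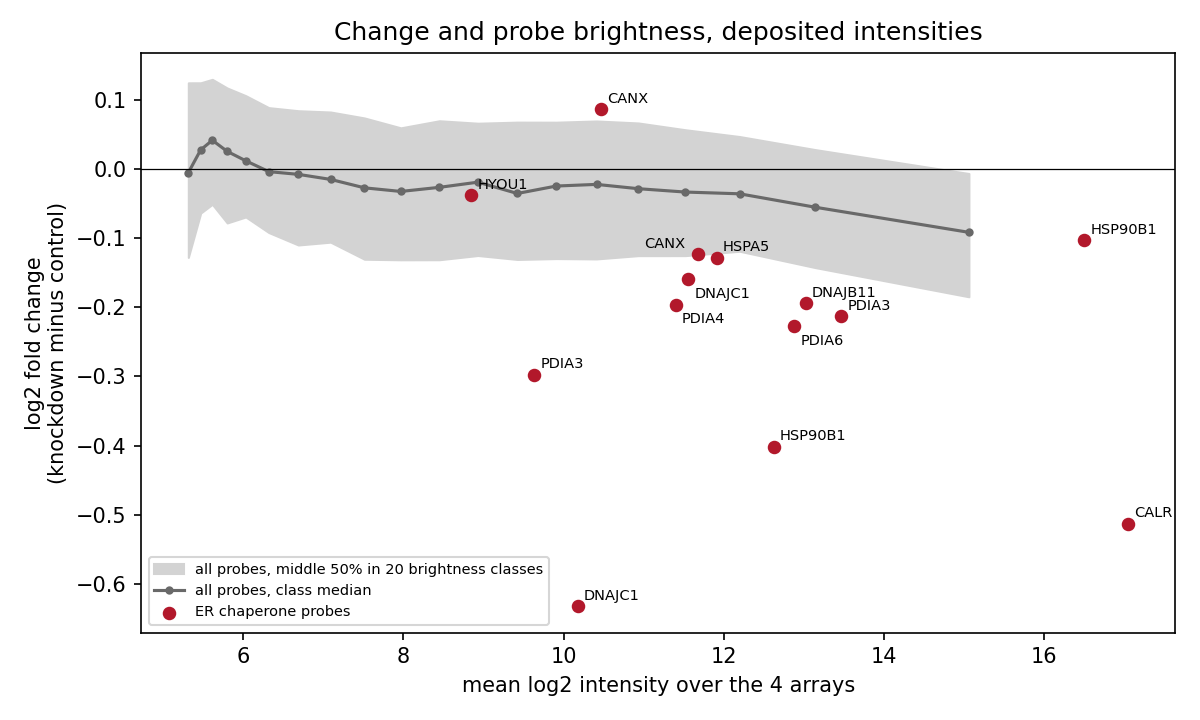
Log2 fold change (y axis) against mean log2 intensity over the 4 arrays (x axis) for the ER chaperone probes (red points) on deposited intensities, with the median (line) and middle 50% (band) of all probes in 20 classes of brightness. The line falls to -0.092 in the brightest class, while CALR lies at -0.51 and the brighter HSP90B1 probe at -0.10.

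Among all 19269 probes with a symbol that were well above background on every array, the 3 with the pattern most like that of CALR were HOXA11, GOLGA8E and KLRG2. Their root mean square difference from CALR over the 4 arrays, after centring each probe on its mean, was 0.013, 0.019 and 0.023 (log2). HOXA11, a homeobox gene of the HOXA cluster, was at 9.52 and 9.54 with siRNA-A and siRNA-B and at 10.03 and 10.02 in the controls. HOXA11 changed by -0.50 (SE 0.11, limma adjusted p = 0.232), and GOLGA8E and KLRG2 by -0.49 each. Similar fold changes follow from how these probes were chosen. The match rests on the median pixel values of CALR, and with mean pixel signals the differences were 0.10, 0.091 and 0.10.

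Calnexin, the membrane-bound relative of calreticulin, was measured by 2 probes in the transcript NM_001746, with different results. On A_33_P3325131 (chr5:179137006-179137065, hg19) the log2 intensity was 11.61 and 11.62 with siRNA-A and siRNA-B and 11.74 in each control. These arrays did not overlap, but the change of -0.12 was not called (SE 0.11, limma adjusted p = 0.830). On A_24_P345993, further downstream at chr5:179158058-179158117, the values were 10.42, 10.60, 10.46 and 10.38 in the order siRNA-A, siRNA-B, control siRNA-1 and control siRNA-2. This was the 1 member probe with a higher mean after knockdown (0.086, SE 0.12), and its arrays overlapped.

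The chaperone HSPA5, known as BiP or GRP78 and commonly read as a gauge of ER stress, was low with siRNA-A alone. Log2 intensity of A_24_P98411 (chr9:127997149-127997208, hg19) was 11.68 with siRNA-A, 12.01 with siRNA-B, 12.01 with control siRNA-1 and 11.94 with control siRNA-2. The siRNA-B array was level with control siRNA-1, and the change of -0.13 was not called (SE 0.13, 95% confidence interval -0.44 to 0.18). HYOU1, the exchange factor of HSPA5, was measured by A_23_P75647 (chr11:118915797-118915856, hg19), at 8.79 with siRNA-A, 8.86 with siRNA-B, 8.84 with control siRNA-1 and 8.89 with control siRNA-2. The arrays overlapped, with a change of -0.038 (95% confidence interval -0.29 to 0.21). DNAJB11, a soluble J-domain cofactor that brings unfolded proteins to HSPA5, was measured by A_23_P166899 (chr3:186302264-186302323, hg19), at 12.75 with siRNA-A and at 13.10 with siRNA-B, against 13.07 and 13.17 in the controls. Here too the siRNA-A array was the low value, siRNA-B lay between the controls, and the change of -0.19 was not called (SE 0.14).

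DNAJC1, a J-domain cofactor of HSPA5 in the ER membrane, gave the strongest fall of the 14 probes on one of its 2 probes. On A_33_P3290687 the log2 intensity was 9.89 with siRNA-A and 9.83 with siRNA-B, against 10.43 with control siRNA-1 and 10.56 with control siRNA-2. The groups were well apart, and the probe fell by 0.63 on the log2 scale (SE 0.11, limma adjusted p = 0.141), which is a change of -35.5% (95% confidence interval -46.0% to -23.0%). It was called with 9 of 15 alternatives, among them loess (-0.60), quantile normalization (-0.61) and mean pixel signals (-0.58). The call was lost when either knockdown array was left out (-0.66 for siRNA-A omitted, -0.60 for siRNA-B omitted) or either control array was (-0.69 and -0.57). On A_23_P127128 the values were 11.44 and 11.51 with siRNA-A and siRNA-B and 11.58 and 11.68 in the controls. Here as well the knockdown arrays lay below the controls, by a smaller margin, and the change of -0.16 was not called (SE 0.11, limma adjusted p = 0.787).

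Both DNAJC1 probes lie in the transcript NM_022365, starting at base 542 and base 1754. HSP90B1 likewise had a pair of probes that differed, in NM_003299 from base 2129 and base 2612. The sequences of both DNAJC1 probes and of the upstream HSP90B1 probe, which spans an intron, are given 5′ to 3′ with their place on hg19, since the probes of these genes gave different values. The probes of a pair also differ in brightness, and why they differ was not tested.
DNAJC1 A_33_P3290687, chr10:22217978-22218037, minus strand: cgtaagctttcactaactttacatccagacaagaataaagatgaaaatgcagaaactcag
DNAJC1 A_23_P127128, chr10:22048168-22048227, minus strand: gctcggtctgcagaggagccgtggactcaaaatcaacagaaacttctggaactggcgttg
HSP90B1 A_33_P3408212, chr12:104337650-104340452, plus strand: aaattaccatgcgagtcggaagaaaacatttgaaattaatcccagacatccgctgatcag

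Within an array, the difference between the upstream and the downstream DNAJC1 probe was -1.55 and -1.68 (log2) with siRNA-A and siRNA-B and -1.15 and -1.13 with the controls. The upstream probe thus fell further, by 0.47, than the downstream probe, and the knockdown and control arrays did not overlap. For HSP90B1 this difference was -4.0 and -4.06 in the knockdown arrays and -3.78 and -3.68 in the controls. For CANX it was 1.19 and 1.02 against 1.27 and 1.36. In both genes the upstream probe had the more negative change, by 0.30 in HSP90B1 and by 0.21 in CANX, without overlap of the arrays. For PDIA3 the difference was 3.83 and 3.92 against 3.75 and 3.84, and the arrays overlapped. The smallest exact permutation p for such a difference is 0.333, and no other test of these differences was run.

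The HSP90B1 gene encodes GRP94, which folds integrins and toll-like receptors, among other clients. On A_33_P3408212 the log2 intensity was 12.33 with siRNA-A, 12.51 with siRNA-B, 12.76 with control siRNA-1 and 12.88 with control siRNA-2. Both knockdown arrays were below the controls, with a change of -0.40 (SE 0.12, limma adjusted p = 0.440) whose unadjusted p of 0.00886 missed the threshold. With normexp and quantile normalization the probe was called (-0.34, SE 0.073). On the lead probe A_23_P2601 (chr12:104341536-104341595, hg19) the values were 16.33, 16.57, 16.54 and 16.56 in the same order. There siRNA-B was level with the controls, the change was -0.10 (SE 0.12), and after loess normalization it was 0.00068, so that no direction can be given for this probe.

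On all 4 probes of the disulfide isomerases the knockdown arrays both lay under the 2 controls, as did 21.4% of all probes, and 0 of these probes were called. In the brightest class, to which these probes do not belong, the share was 40.9%. PDIA3 (ERp57), the partner of calreticulin and calnexin, was at 13.24 and 13.48 with siRNA-A and siRNA-B and at 13.52 and 13.62 in the controls on its lead probe A_24_P101201 (chr15:44062500-44062755, hg19, across an intron), a change of -0.21 (SE 0.12). This change was -0.090 with the siRNA-A array left out and -0.33 with the siRNA-B array left out. On its other probe A_33_P3223923 (chr15:44064742-44064801) it was at 9.41 and 9.56 against 9.77 and 9.79, a change of -0.30 (SE 0.11, limma adjusted p = 0.568). The gap between the groups was wider on this second probe, on which both controls were nearly equal. PDIA6, on A_24_P319715 (chr2:10927412-10927471), was at 12.71 and 12.82 against 12.96 and 13.02, a change of -0.23 (SE 0.11, limma adjusted p = 0.679). PDIA4, on A_23_P42802 (chr7:148700904-148700963), was at 11.27 and 11.33 against 11.35 and 11.64, a change of -0.20 (SE 0.13) that was -0.34 or -0.050 when the control siRNA-1 or the control siRNA-2 array was left out, and its 2 controls differed more from each other than either knockdown array from control siRNA-1.

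**Figure D4:**
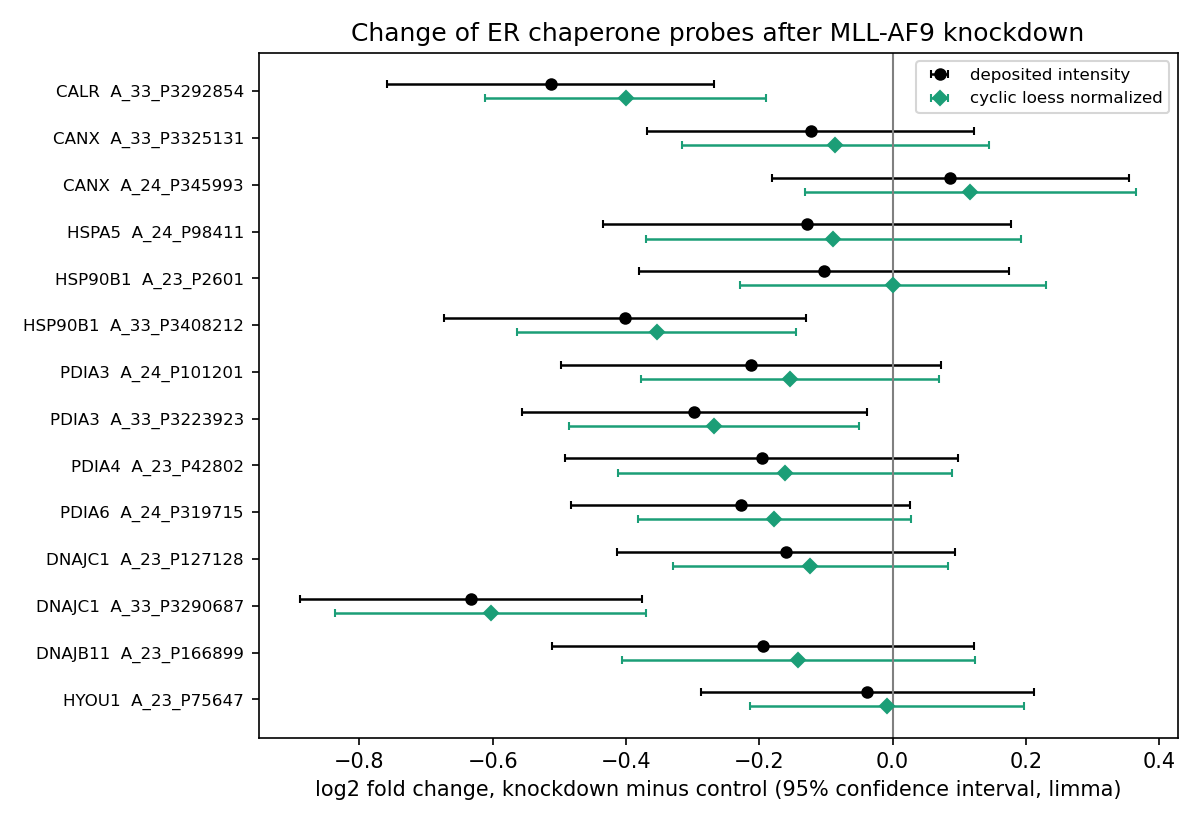
Log2 fold change (x axis, knockdown minus control) with 95% confidence interval from limma for the 14 ER chaperone probes, on deposited intensities (black circles) and after cyclic loess normalization (green diamonds). The intervals of CALR, DNAJC1 A_33_P3290687, HSP90B1 A_33_P3408212 and PDIA3 A_33_P3223923 lie below 0 with both, and the lead HSP90B1 probe moves from -0.10 to 0.00068.

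The log2 intensity was lower with siRNA-A than with siRNA-B on 13 of 14 probes, and the exception was DNAJC1 A_33_P3290687 (-0.60 and -0.66). With mean pixel signals this held for 12 probes, CALR being the further exception. Against the mean of both controls, which both siRNAs share, the median over the 14 probes was -0.29 for siRNA-A and -0.12 for siRNA-B. Over all probes these medians were -0.046 and 0.0093, and over the brightest 5% of probes they were -0.13 and -0.037. The widest gaps were those of DNAJB11 (-0.37 and -0.018) and HSPA5 (-0.29 and 0.036). The siRNAs were closest on CANX A_33_P3325131 (-0.13 and -0.12), also with mean pixel signals (-0.16 and -0.14). CALR came next (-0.53 and -0.50), but with mean pixel signals it was at -0.30 and -0.41 and no longer among the closest. With 1 array per siRNA the difference between the siRNAs was not tested. Control siRNA-1 was lower than control siRNA-2 on 11 of 14 probes, with a median difference of -0.061 over these probes and of -0.062 over all probes.

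Genes that work beside these chaperones were taken from lists by function, each gene by its brightest probe. Among 10 cofactors of HSPA5 and partners that ER stress induces, 1 was called lower and 0 higher, where 0.65% of all lead probes were called lower. The median was -0.066, and it was -0.036 after loess, -0.13 with the control siRNA-1 array left out and -0.043 with the control siRNA-2 array left out. The called gene was CRELD2, a secreted ER stress protein, at 13.22 with siRNA-A, 13.06 with siRNA-B, 13.75 with control siRNA-1 and 13.64 with control siRNA-2. CRELD2 fell by 0.55 on the log2 scale (SE 0.12, limma adjusted p = 0.229), with no overlap of the arrays, but its call was lost in 10 of 15 alternatives, among them loess (-0.49) and each fit without 1 of the arrays (-0.63 to -0.47). Among 13 genes of the lectin chaperone cycle, in which calreticulin and calnexin act, 1 was called lower (against the same 0.65%) and 0 higher (median 0.0051, and -0.011 after loess). The median had no stable sign, at -0.053 with siRNA-A omitted, -0.078 with siRNA-B omitted, -0.076 with control siRNA-1 omitted and 0.019 with control siRNA-2 omitted. The called gene was UGGT2, a homolog of the enzyme that returns unfolded glycoproteins to the lectins, at 11.59 and 11.51 against 12.12 and 11.98. UGGT2 fell by 0.50 on its brightest probe (SE 0.11, limma adjusted p = 0.253). Its call was lost in 11 of 15 alternatives, among them loess (-0.46) and each fit without 1 of the arrays (-0.57 to -0.43). A second UGGT2 probe, A_24_P44341, had both knockdown arrays under both controls, but its change of -0.21 was not called (SE 0.11).

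The remaining 7 lists held 0 called genes in limma. Of 18 further folding enzymes of the ER measured, out of 19 listed, 15 had a lower mean and 10 had both knockdown arrays under both controls (median -0.10, -0.056 after loess and -0.17 with siRNA-B omitted), with 5 at an unadjusted p under 0.05 in limma. Over all lead probes 56.5% had a lower mean, 21.3% had both knockdown arrays under both controls, and 7.88% had an unadjusted p under 0.05. Of 16 genes of ER translocation 13 had a lower mean (median -0.14), and of 3 KDEL receptors, which return ER proteins from the Golgi, 3 had (median -0.15). With the siRNA-A array left out the translocation median was -0.045 and that of the KDEL receptors turned to 0.090, and with the siRNA-B array left out they were -0.30 and -0.45. Of 18 genes of ER calcium handling 13 had a lower mean (median -0.077), with a median of -0.021 after loess, -0.0054 without siRNA-A, -0.12 without control siRNA-1 and 0.0098 without control siRNA-2. Of 15 sensors and regulators of the unfolded protein response 8 had a lower and 7 a higher mean, and their median of -0.088 turned to 0.086 after quantile normalization and to 0.042 with siRNA-A omitted. It was -0.025 after loess and -0.028 with control siRNA-2 omitted. Genes of ER-associated degradation had a median of -0.013 (13 genes), which turned to 0.030 after loess and 0.025 after quantile normalization. It was 0.028 with the siRNA-A array left out, -0.15 with the siRNA-B array and -0.048 with the control siRNA-1 array left out. Chaperones of the cytosol and mitochondria, which do not reside in the ER, had a median of -0.076 (26 genes), which was -0.024 after loess and -0.020 after quantile normalization. It was -0.023 and -0.12 with siRNA-A and siRNA-B omitted in turn, and -0.14 and -0.027 with control siRNA-1 and control siRNA-2 omitted in turn. In these 7 lists between 1 and 5 genes each had an unadjusted p under 0.05 in limma. Under alternatives, 2 of the further folding enzymes were called lower with an intensity trend in the variance, and 1 with normexp, with the filter on dim probes and without siRNA-B. With the scaled or unscaled background-subtracted signal 1 KDEL receptor was called lower. In the other 5 of these lists 0 genes were called under any of the 15 alternatives.

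**Figure D5:**
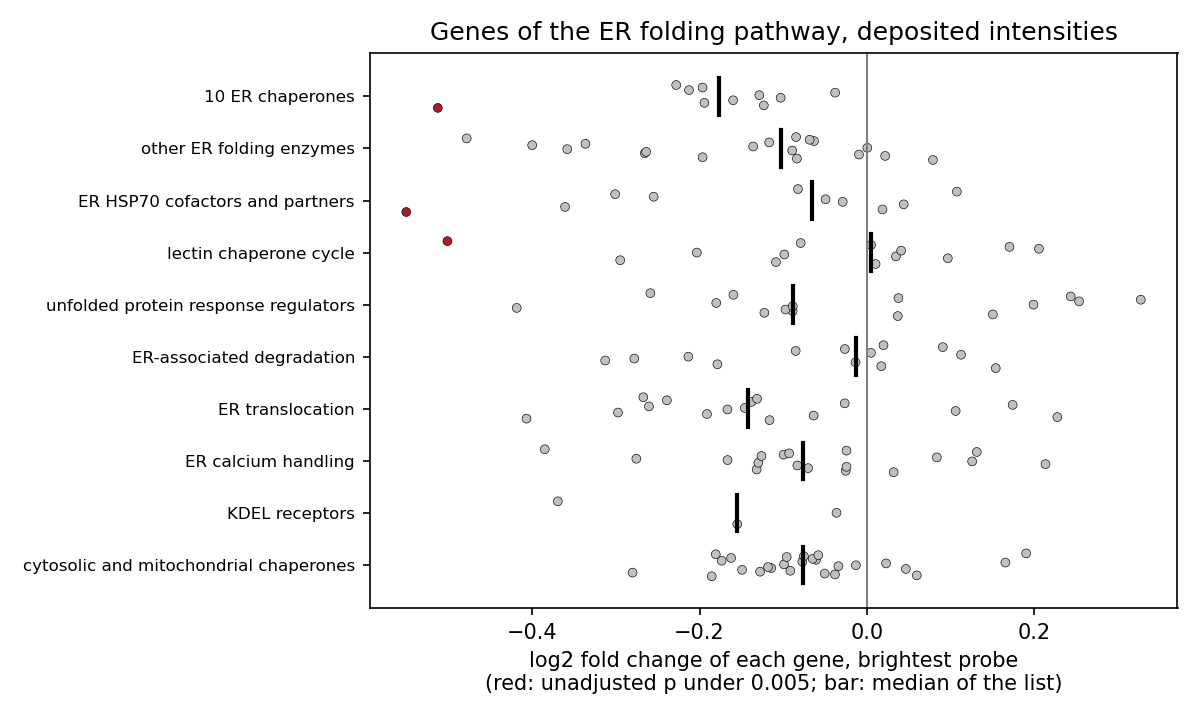
Log2 fold change (x axis) of the brightest probe of each gene in the 10 ER chaperones and 9 further lists (y axis), with the median of each list as a black bar and genes called at an unadjusted p under 0.005 in red. CALR, CRELD2 and UGGT2 are the called genes, and the medians lie between -0.18 and 0.0051.

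Genes that share the ERSE with the chaperones were described as well, a set chosen after the promoter matches and earlier results were known. Of 25 genes with the element 16 were measured, and 14 of these had a lower mean after knockdown. Among them 3 were called lower and 0 higher, CALR, CRELD2 and SYNPO, where 0.65% of all lead probes were called lower. The knockdown arrays both lay under the 2 controls in 7 of the 16 and above them in 0, where 21.3% of all lead probes lay under them. These counts include 5 of the chaperones. Of the 11 genes outside the chaperone set 2 were called lower, 9 had a lower mean, against 56.5% of all lead probes, and 4 had both knockdown arrays under both controls. Their median was -0.076 and they ranged from -0.55 to 0.082. SYNPO, an actin-associated protein, was at 6.98 and 6.99 with siRNA-A and siRNA-B and at 7.54 and 7.41 in the controls, a change of -0.49 (SE 0.11, limma adjusted p = 0.256). XBP1, a transcription factor of the unfolded protein response, was at 12.75 and 12.94 against 13.14 and 13.07, a change of -0.26 (SE 0.12, limma adjusted p = 0.646) that was not called.

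The knockdown and the cell type were checked on the same arrays. Both MLLT3 (AF9) probes were called lower, with changes of -0.76 on A_23_P216693 (limma adjusted p = 0.0639) and -0.63 on A_24_P192627 (adjusted p = 0.182). Probes of both genes can also bind transcripts of the unfused genes, and which of them lie in the fusion was not examined. Of 4 MLL probes, A_33_P3390570 had both knockdown arrays below the controls (-0.41, not called) and the others overlapped, with -0.085 on A_24_P136402, -0.027 on A_33_P3307307 and 0.048 on A_33_P3390576. Of 12 monocytic and myeloid markers 10 were measured and all 10 were well above background on every array. CD14, a monocyte receptor, rose by 1.05 (limma adjusted p = 0.0355), and ELANE, the neutrophil elastase, fell by 0.47 (adjusted p = 0.277) and was not called after loess (-0.36). Of the 10, 7 had a lower mean, and their median of -0.046 turned to 0.022 after loess. The summed intensity of these markers was 474572 to 490961 in the knockdown and 592562 to 648899 in the control arrays, and CTSG and ELANE, which encode granule proteases, made up most of it. Without this pair the sums were 97279 and 108138 against 106829 and 103937, and the arrays overlapped. CTSG, named after its values were seen, changed by -0.43 (SE 0.12, limma adjusted p = 0.414) and was not called. Of 12 markers of other cell types 11 were measured and 8 were well above background on all arrays, with a sum of 11555 to 12700 in the knockdown and 12808 to 13633 in the control arrays. The brightest was PECAM1, at 12.59 and 12.90 (log2) with siRNA-A and siRNA-B against 12.92 and 12.67, and its arrays overlapped. NKG7 came next, at 11.80 and 11.74 against 12.05 and 12.18, and was not called. The part of either marker group in the lower chaperone levels was not tested.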

How the data were processed

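Gene expression was profiled on 4 single-colour arrays of THP1 RNA. The authors extracted the spots with Agilent Feature Extraction 10.5.1.1, as the submitters' processing notes give it, and deposited for each spot an intensity, which is the median pixel signal in 100% of spots, without background correction or normalization between arrays, and a quality weight. How the weights were set is not given in the sources used here. Each scanner file has 61 columns, of which 21 were used. Of 43118 spots that are no controls, 33323 had a weight above 0 on every array. Log2 intensities of identical spots were averaged and the knockdown minus control difference was fitted over 26219 probes (limma 3.58.1, R 4.3.3), weighted by the deposited weights, with no covariate. Probes were called at the unadjusted p under 0.005 of the study's methods, without their further condition on identical replicate probes, and adjusted p are Benjamini-Hochberg over all probes. All member probes are named. Of the other lists, called genes are named, at most 4 per list, and every MLL and MLLT3 probe. SYNPO, XBP1, CTSG, PECAM1 and NKG7 are named beyond this rule, after their values were seen. The members and lists were chosen with earlier results of these data known. The fitting code was also run on simulated probes with known changes, as a check of the code and not of these results. Alternatives were other signals and normalizations, a fit without weights, the removal of dim probes, a variance trend over intensity and the omission of each array. Mean pixel signals with loess, and the comparison of mean with median pixel signals, were added after seeing the data. Probe names and positions (hg19) are those of the array design, and the number of arrays limits the precision.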

Additional observations from a re-analysis of the deposited data

How the results depend on the processing

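No paired analysis was run, because each array is a pool of 5 experiments with 1 siRNA and no knockdown array has a control array of its own. The median log2 fold change of the 10 genes stayed negative under all 15 alternatives (-0.25 to -0.11), and 0 genes were called higher in limma under any of 18 settings, and 0 were higher at an unadjusted p under 0.05. CALR kept its direction under all 15 alternatives and its call under 6, with limma adjusted p between 0.0927 and 1.0. Its call was lost with the scaled (-0.30) and unscaled (-0.34) background-subtracted signal, with normexp and quantile normalization (-0.22), with mean pixel signals (-0.35), with mean pixel signals and loess (-0.24), and without any 1 of the arrays (-0.53 to -0.50). The number of genes called lower was then 0 in place of 1. It was also 0 at an adjusted p under 0.05, and 2 when any probe of a gene was counted. The call of DNAJC1 A_33_P3290687 was lost with the scaled (-0.58) and unscaled (-0.62) background-subtracted signal and without any 1 of the arrays (-0.69 to -0.57). Direction turned for HSP90B1 A_23_P2601 with loess (0.00068), normexp (0.030) and without siRNA-A (0.016, and -0.22 without siRNA-B). It turned for HYOU1 with quantile normalization (0.0045), and when 1 array was left out for HSPA5 (-0.29 to 0.036, higher without siRNA-A) and CANX A_24_P345993 (-0.0036 to 0.18, lower without siRNA-B). Without siRNA-A, 11 of 14 probes had a lower mean in place of 13. With 1 array left in a group, its spread was taken from the other group. Each of these fits called fewer of all probes than the fit with all arrays. A call lost there need not mean a changed value. The causes were not tested.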
